A study of Mus musculus with 6 samples.

Results

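The genes that carry fatty acids from circulating lipoproteins into the fat cell were examined in bulk RNA sequencing of mouse inguinal white adipose tissue, the fat pad under the skin of the groin. The members were chosen by name and role, not by a measured value, but with earlier results of these data known. The choice was Lpl, Gpihbp1 and Vldlr for lipolysis of lipoproteins at the vessel wall, Cd36, Slc27a1 and Slc27a4 for entry through the cell membrane, Fabp4 and Fabp5 for binding in the cytosol, and Acsl1 and Acsl4 for activation to acyl-CoA. The members are 10 of the 24984 genes listed, and all 10 were among the 14065 genes that passed the low-count filter and were tested. The libraries came from 3 wild-type and 3 Mpst knockout samples, and both groups were on a high-fat diet, so a diet effect cannot be read from them. Mpst encodes a sulfurtransferase that makes hydrogen sulfide. The labels give no age, sex or strain, and do not say whether the deletion is confined to a tissue. They do not state that replicates are separate animals, so the spread behind each p-value may not be that between animals.

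Fat tissue takes up fatty acids in steps. Lipoprotein lipase (LPL), made by adipocytes, is carried across the capillary wall by GPIHBP1 and splits triglyceride in lipoproteins there, and the very low density lipoprotein receptor (VLDLR) helps to hold the particles. CD36 and the fatty acid transport proteins bring the released fatty acids in, FABP4 and FABP5 bind them in the cytosol, and long-chain acyl-CoA synthetases such as ACSL1 and ACSL4 join them to coenzyme A for storage or oxidation.

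The libraries held 8054560 to 22458630 counts in genes, with knockout replicate 1 the shallowest. Mpst had raw counts of 1358, 1394 and 1624 in the wild-type libraries, against 3, 10 and 9 in those of the knockout, which puts each library on the side its label gives. Wild-type replicate 3 stood apart from the other wild-type libraries: its median squared difference from replicates 1 and 2, relative to sampling noise, was 23.1 and 19.9, against 5.58 between replicates 1 and 2. Among the knockout libraries replicate 3 differed most, at 8.35 and 12.9 from replicates 1 and 2, against 3.27 between these. This measure rises with depth, so pairs with the shallow knockout replicate 1 cannot be set directly against the other pairs. The summed level of 14 macrophage markers was 537 to 1054 CPM (counts scaled to the normalised library size) in wild type and 1819 to 1948 CPM in knockout, and that of 13 adipocyte markers was 24923 to 28740 CPM and 20536 to 21382 CPM. Muscle markers summed to 1023 CPM in wild-type replicate 2 and 2466 CPM in knockout replicate 3, and to 47.0 to 160 CPM in the other 4 libraries. Fibroblast and progenitor markers summed to 4856 to 5869 CPM in wild type and 6588 to 7538 CPM in knockout, lymphocyte markers to 18.9 to 21.5 CPM and 23.4 to 49.7 CPM, and brown adipocyte markers to 144 to 213 CPM and 81.4 to 123 CPM, each without overlap. Directions were mixed within lists: 3 tested brown adipocyte markers had a log2 fold change above 0 and 4 below. For fibroblast and progenitor markers these counts were 7 and 3. The part of these cell types in the results was not tested. Epithelial markers stayed at or under 1.32 CPM in sum, with Krt14, Wap and Csn2 at 0 counts in all libraries. In bulk tissue, fewer cells of a type and less RNA per cell cannot be told apart.

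The 10 genes together took 5.39%, 5.36% and 4.60% of all counts in the wild-type libraries, against 5.14%, 5.47% and 4.62% in the knockout libraries. Fabp4 alone took 2.90% to 3.33% of counts in wild type and 2.28% to 2.84% in knockout. Per kilobase of the principal transcript, wild-type levels in CPM per kilobase were highest for Fabp4 (36171 ± 3851, SD, n = 3), followed by Lpl (3529 ± 897), Cd36 (1010 ± 113), Gpihbp1 (704 ± 102), Fabp5 (442 ± 191), Acsl1 (415 ± 25.2), Slc27a1 (206 ± 53.3), Slc27a4 (18.4 ± 2.75), Vldlr (16.4 ± 1.82) and Acsl4 (4.19 ± 0.610). Neighbours in that order did not overlap between wild-type libraries, with the exceptions of Fabp5 with Acsl1 and Slc27a4 with Vldlr. In knockout the order of means differed in the middle, where Acsl1 (544 ± 37.1) came before Fabp5 (524 ± 62.9) and Gpihbp1 (505 ± 51.3), and with Vldlr (21.0 ± 1.24) above Slc27a4 (15.2 ± 2.02). With the length of all exons in place of the principal transcript, Acsl1 came before Fabp5 in wild type and Gpihbp1 before Fabp5 in knockout.

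None of the 10 genes was called at an adjusted p under 0.05 by edgeR's quasi-likelihood test, the main test, where 7.41% of all tested genes were called (4.76% higher and 2.65% lower in knockout). At an unadjusted p under 0.05 there were 6 of the 10, Cd36, Acsl1, Acsl4 and Vldlr on the higher side and Gpihbp1 and Slc27a1 on the lower, against 27.6% of all tested genes. DESeq2 called 4 of them, Cd36 and Acsl1 higher and Gpihbp1 and Slc27a1 lower, where it called 14% of all tested genes, and limma-voom called 0, where it called 7.64% of all tested genes. The libraries of the genotypes did not overlap for 5 genes, against 33.3% of all tested genes. The median log2 fold change over the 10 genes was 0.16, against 0.01 over all tested genes, with 6 genes above 0 and 4 below.

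**Figure D1:**
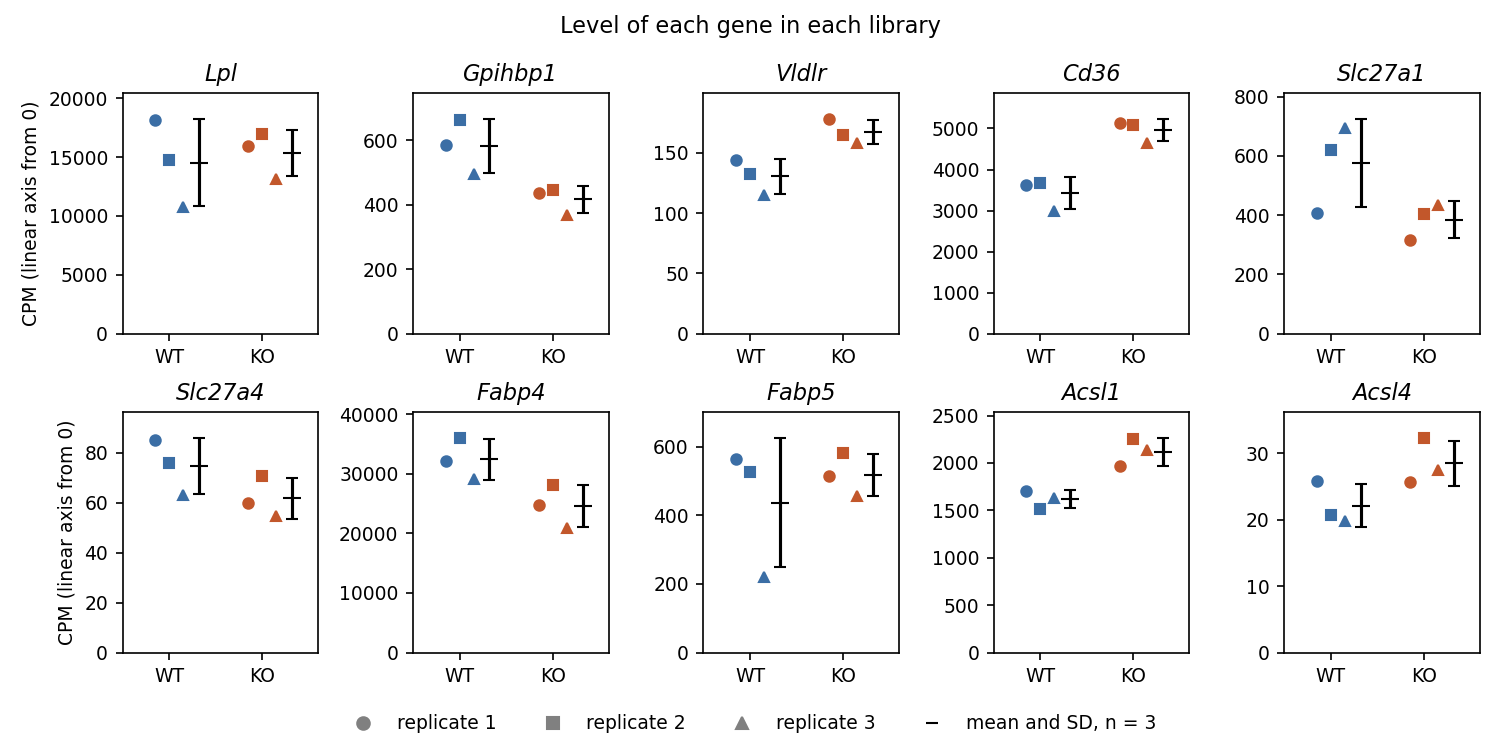
Level of each gene in CPM on a linear axis from 0, with 1 point per library (blue wild type, orange knockout) and the mean with SD over 3 libraries in black. Cd36, Vldlr and Acsl1 were higher in every knockout library than in any wild-type library, Gpihbp1 and Fabp4 were lower, and the groups overlapped for the others.

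**Figure D2:**
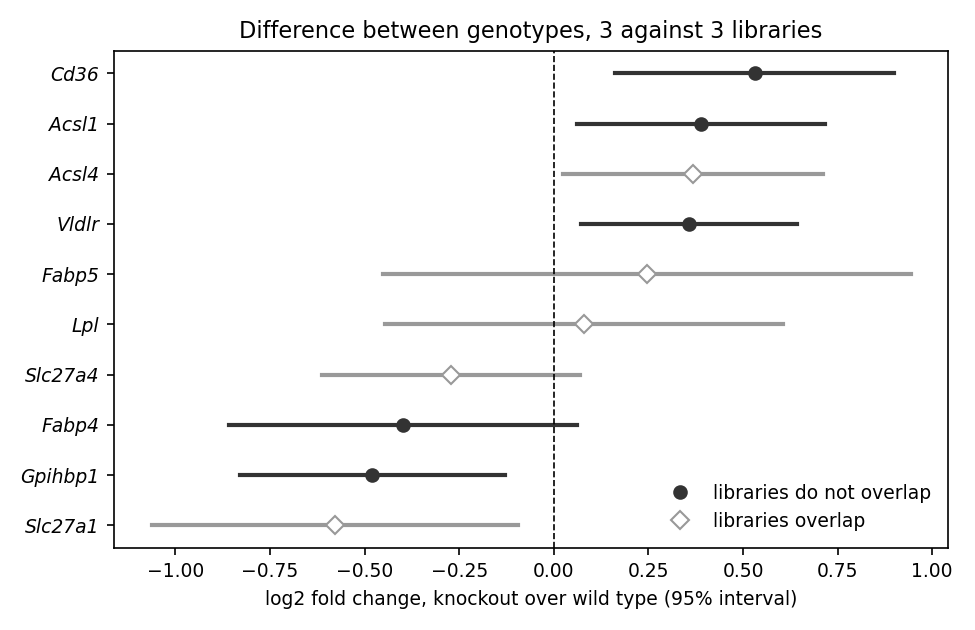
Log2 fold change of each gene, knockout over wild type, with its 95% interval from the edgeR fit. Filled circles mark genes whose libraries did not overlap between genotypes, and the intervals of Lpl, Fabp5, Slc27a4 and Fabp4 include 0.

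The RefSeq promoter table (GRCm38.p6) held windows for 6 of the 10 genes, Cd36, Acsl1, Slc27a1, Slc27a4, Vldlr and Acsl4. The 250 bases before the start are shown for the 3 genes whose knockout libraries all lay above the wild-type libraries (for Acsl1 and Vldlr, the first of 2 windows in the direction of the gene). The counts are per gene, so they do not show which start was in use, and the Cd36 window lies inside the annotated span of that gene. Each is printed 5′ to 3′ in the direction of the gene, with GC boxes (GGGCGG on either strand) in capitals.
Cd36, chr5:17835897-17836146, minus strand: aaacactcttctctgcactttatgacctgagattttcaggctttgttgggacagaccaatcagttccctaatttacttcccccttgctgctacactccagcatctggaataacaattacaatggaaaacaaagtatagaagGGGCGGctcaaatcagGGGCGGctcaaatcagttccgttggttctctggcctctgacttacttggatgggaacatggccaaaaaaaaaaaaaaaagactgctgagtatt
Acsl1, chr8:46470787-46471036, plus strand: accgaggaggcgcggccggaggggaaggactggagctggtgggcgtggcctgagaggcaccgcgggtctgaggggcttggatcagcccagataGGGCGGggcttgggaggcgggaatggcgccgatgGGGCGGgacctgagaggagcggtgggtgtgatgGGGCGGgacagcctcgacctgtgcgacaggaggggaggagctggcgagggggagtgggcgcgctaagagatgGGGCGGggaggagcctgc
Vldlr, chr19:27216234-27216483, plus strand: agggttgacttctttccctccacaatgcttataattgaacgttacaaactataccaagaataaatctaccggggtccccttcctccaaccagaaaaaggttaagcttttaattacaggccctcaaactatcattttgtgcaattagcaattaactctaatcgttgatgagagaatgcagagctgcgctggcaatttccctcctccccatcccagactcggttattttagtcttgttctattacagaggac
The Cd36 window held 2 GC boxes and the Acsl1 window 4, while the Vldlr window shown held 0. The second windows, not shown, held 0 for Acsl1 and 1 for Vldlr. A GC box was present in 32.7% of all 32851 windows of this length. The CCAAT box (CCAAT) occurred once in the Cd36 window, in neither of the other windows shown, 2 times in the second Acsl1 window and once in the second Vldlr window, and in 33.8% of all windows. The TATA box (TATAAA, in 12.4% of all windows) and the E-box (CACGTG, in 6.02%) were in none of the windows shown. Both strands were searched. These matches describe letters in a short window and say nothing of binding.

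Lpl, the lipase itself, showed no difference between the genotypes larger than the spread of its libraries. It lies on chromosome 8 from 68880491 to 68907448 of GRCm38. Wild-type replicates 1, 2 and 3 had 18109, 14728 and 10733 CPM, and the knockout replicates 15926, 16952 and 13161 CPM. All knockout libraries lay inside the wild-type range. Its log2 fold change was 0.08 (SE 0.23, 95% interval −0.45 to 0.60, edgeR adjusted p = 0.854), and it was −0.09 without wild-type replicate 3. Lpl is also expressed by macrophages, whose markers were higher in knockout, and their part in its level was not tested.

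Gpihbp1, the endothelial protein that carries LPL across the capillary wall (chromosome 15, 75596628 to 75599481), was lower in every knockout library, without passing the threshold. Wild-type libraries had 585, 663 and 495 CPM, and knockout libraries 436, 445 and 368 CPM. The lowest wild-type library was above the highest knockout library. This gave a log2 fold change of −0.48 (SE 0.15, 95% interval −0.83 to −0.13, edgeR adjusted p = 0.0874), a 28.3% lower level. Without wild-type replicate 3 it was −0.58 and passed (edgeR adjusted p = 0.0193), and without the 2 libraries highest in muscle transcripts it was −0.29 (edgeR adjusted p = 0.502). Over all tested genes, the first of these fits called 18.3% and the second 0.00711%, against 7.41% in the main fit. The 13 endothelial markers had a median log2 fold change of 0.08, with 1 called higher and 0 lower. They were split, with 9 above 0 and 4 below, in a range of −0.40 to 0.52. Their sum was 2349 to 2813 CPM in wild type and 2457 to 2611 CPM in knockout. Relative to that sum, wild-type libraries had Gpihbp1 ratios of 0.208, 0.252 and 0.211 and knockout libraries 0.173, 0.181 and 0.141, again without overlap.

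Vldlr, the receptor that holds triglyceride-rich lipoproteins at the cell surface (chromosome 19, 27216484 to 27254231), was on the higher side in knockout. Wild-type libraries had 144, 132 and 115 CPM, knockout libraries had 178, 165 and 159 CPM, and the groups did not overlap. Vldlr had a log2 fold change of 0.36 (SE 0.13, 95% interval 0.07 to 0.64, edgeR adjusted p = 0.109). Relative to the summed macrophage markers the direction turned without overlap, from 0.137 to 0.215 in wild type to 0.0849 to 0.0979 in knockout. The macrophage sum was itself higher in knockout, so this ratio falls for any gene that rose less than the sum. Vldlr was not set against the adipocyte or endothelial markers. The part of macrophages in the Vldlr level was not tested.

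Cd36, the fatty acid translocase and scavenger receptor of adipocytes, endothelium and macrophages (chromosome 5, 17781690 to 17888801), had the largest difference on the higher side among the members. Its level was 3631, 3674 and 2990 CPM in the wild-type libraries, against 5133, 5091 and 4649 CPM in the knockout libraries. The knockout libraries lay close together and all above wild type, at 1.44-fold. On the log2 scale the difference was 0.53 (SE 0.16, 95% interval 0.16 to 0.90, edgeR adjusted p = 0.0786), with an adjusted p of 0.00480 in DESeq2. Relative to the summed adipocyte markers, Cd36 was 0.116 to 0.146 in wild type and 0.226 to 0.245 in knockout, and relative to endothelial markers 1.27 to 1.40 and 1.78 to 2.07. The adipocyte sum was itself lower in knockout, so the ratio to it rises for any gene that fell less than the sum. Relative to the summed macrophage markers the direction turned, from 3.45 to 5.56 in wild type to 2.54 to 2.82 in knockout. Here too the ratio falls for any gene that rose less than the macrophage sum. The part of macrophages in the Cd36 level was not tested.

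Slc27a1, which encodes FATP1, a transport protein of adipocytes and muscle (chromosome 8, 71568882 to 71587302), was on the lower side. Wild-type libraries had 409, 621 and 696 CPM, and knockout libraries 316, 403 and 436 CPM. Wild-type replicate 1 lay within the knockout range, while replicates 2 and 3 lay above it. Slc27a1 had a log2 fold change of −0.58 (SE 0.21, 95% interval −1.06 to −0.09, edgeR adjusted p = 0.122), the largest in size among the members. Without wild-type replicate 1 it was −0.77 and passed (edgeR adjusted p = 0.0468), where 5.55% of all tested genes were called. In the libraries highest in muscle transcripts, wild-type replicate 2 and knockout replicate 3, Slc27a1 was 621 and 436 CPM, the middle wild-type value and the highest knockout value. Slc27a4, which encodes FATP4 (chromosome 2, 29802634 to 29817522), had 85.2, 75.9 and 63.0 CPM in the wild-type libraries and overlapping values of 60.0, 70.8 and 54.7 CPM in the knockout libraries. Its log2 fold change was −0.27 (SE 0.15, edgeR adjusted p = 0.274), and −0.16 without wild-type replicate 1.

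Fabp4, the main fatty acid binding protein of adipocytes (chromosome 3, 10204088 to 10208576), was lower in every knockout library, but not by the test. Wild-type libraries had 32174, 35972 and 29082 CPM, and knockout libraries 24822, 28032 and 20859 CPM. The gap between the closest libraries of the 2 groups was small beside the range within each group. Fabp4 had a log2 fold change of −0.40 (SE 0.20, 95% interval −0.86 to 0.06, edgeR adjusted p = 0.236). The 13 adipocyte markers had a median log2 fold change of −0.36, with 12 of them below 0 and 2 called lower. Set against their sum, wild-type libraries had Fabp4 ratios of 1.29, 1.25 and 1.13 and knockout libraries 1.19, 1.31 and 1.02, so that the groups overlapped.

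Fabp5, the epidermal-type binding protein that adipocytes and macrophages share (chromosome 3, 10012548 to 10016607), lies 187480 bases from Fabp4, in a cluster with Pmp2, Fabp9 and Fabp12. Wild-type libraries had 563, 527 and 220 CPM, and knockout libraries 516, 580 and 456 CPM. Wild-type replicate 3 was well under the other 5 libraries, which lay between 456 and 580 CPM. Fabp5 had a log2 fold change of 0.25 (SE 0.31, 95% interval −0.45 to 0.94, edgeR adjusted p = 0.645), and −0.07 without wild-type replicate 3. That replicate also had the lowest summed macrophage markers, 537 CPM against 918 and 1054 CPM in the other wild-type libraries. Relative to macrophage markers, Fabp5 was 0.409 to 0.574 in wild type and 0.249 to 0.298 in knockout. This ratio, too, falls for any gene that rose less than the macrophage sum. Reads that match Fabp5 and its annotated relative Fabp5l2 could have been left out by the counting, so its level is uncertain.

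The share of Fabp5 in the sum of Fabp4 and Fabp5, per kilobase of principal transcript, was 1.56%, 1.31% and 0.681% in the wild-type libraries, against 1.85%, 1.85% and 1.95% in knockout. The knockout libraries lay within a narrow band above all wild-type libraries, with means of 1.19% ± 0.455 and 1.88% ± 0.0569 (SD, n = 3). An exact two-sided permutation test gave p = 0.1 (0.2 adjusted over the 2 shares tested), the smallest p that 3 against 3 libraries can give. The difference was 0.696 percentage points, and 0.444 without wild-type replicate 3.

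**Figure D3:**
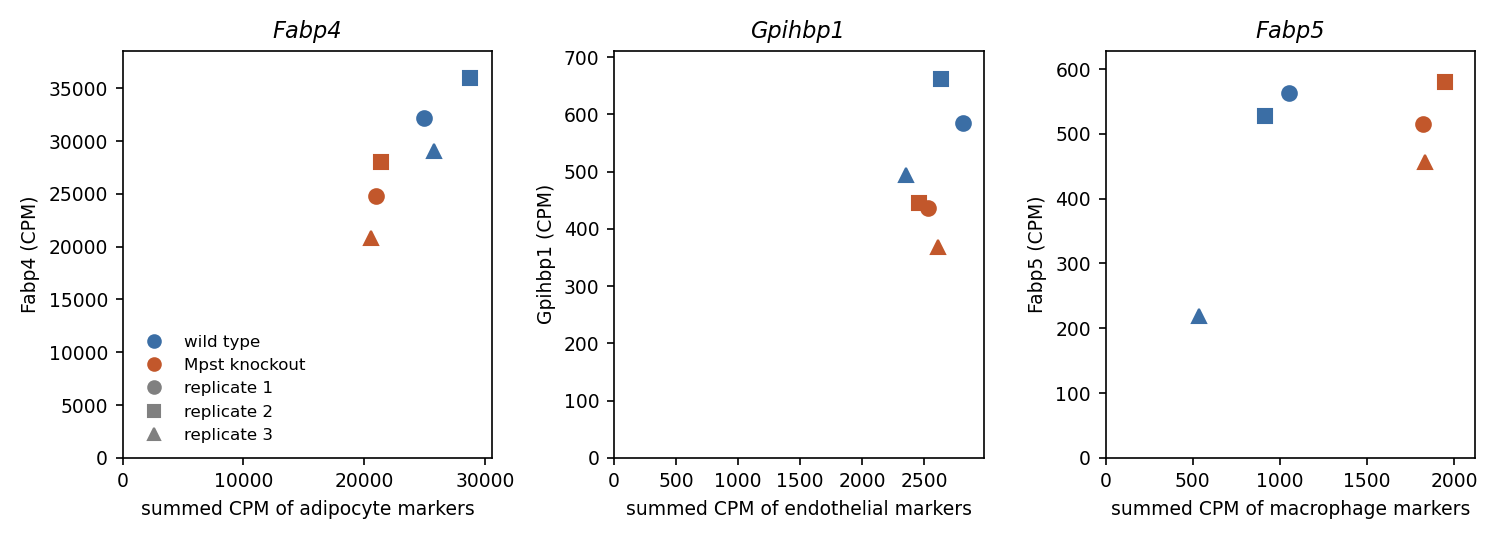
Level of Fabp4, Gpihbp1 and Fabp5 in CPM against the summed CPM of adipocyte, endothelial and macrophage markers, 1 point per library, both axes linear from 0. Fabp4 and the adipocyte markers were both lower in knockout, Gpihbp1 was lower at endothelial sums inside the wild-type range, and Fabp5 was lowest in wild-type replicate 3, which also had the lowest macrophage sum.

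Acsl1, the main long-chain acyl-CoA synthetase of adipocytes (chromosome 8, 46471037 to 46536051), was higher in every knockout library. Wild-type libraries had 1708, 1513 and 1633 CPM, and knockout libraries 1964, 2251 and 2140 CPM. Acsl1 had a log2 fold change of 0.39 (SE 0.14, 95% interval 0.06 to 0.72, edgeR adjusted p = 0.123), with an adjusted p of 0.0240 in DESeq2. Set against the summed adipocyte markers, Acsl1 was 0.0527 to 0.0685 in wild type and 0.0937 to 0.105 in knockout. That sum was itself lower in knockout, so this ratio rises for any gene that fell less than the sum. An antisense gene model, Gm45244, covers 9.91% of the exon bases of Acsl1, and the library kit does not mark strand. Acsl4, the synthetase that prefers arachidonic acid (chromosome X, 142317993 to 142390535), had 25.8, 20.7 and 19.8 CPM in the wild-type libraries, against 25.6, 32.3 and 27.5 CPM in the knockout libraries. Wild-type replicate 1 reached into the knockout range, and the log2 fold change was 0.37 (SE 0.15, edgeR adjusted p = 0.156). The share of Acsl4 in the sum of both, per kilobase, was 0.997% ± 0.108 in wild type and 0.980% ± 0.0587 in knockout (SD, n = 3, exact two-sided permutation p = 0.9).

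The 4 genes on the higher side at an unadjusted p under 0.05 all had smaller differences under the same correction. Once each library's dependence on GC content and exon length had been taken out, the log2 fold change was 0.27 for Cd36, 0.22 for Acsl1, 0.17 for Vldlr and 0.10 for Acsl4, with edgeR adjusted p from 0.318 to 0.716. Lpl then stood at −0.12. On the lower side, Gpihbp1 stood at −0.36, Slc27a1 at −0.53, Slc27a4 at −0.20 and Fabp4 at −0.57. The part of GC content and length in the differences was not tested further.

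The other genes of the pathway were taken from 7 lists by role, with 73 genes, of which 57 were tested. In them 4 were called higher and 1 lower, against 4.76% higher and 2.65% lower over all tested genes, and the median log2 fold change was 0.00. Of the 57, 52 reached the low-count cutoff of 0.508 CPM in all libraries, 4 in 5 of the 6 libraries, and Fabp7 only in the knockout libraries. Fabp7 is 1 of the 4 called higher, and its call carries no weight. All 5 calls ended without wild-type replicate 2, without any one of the knockout libraries, and without the 2 libraries highest in muscle transcripts, where edgeR called 0 to 41 genes higher and 1 to 5 lower in all.

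Of 11 tested genes of caveolae and CD36 trafficking, 3 rose and 0 fell, and 5 had an unadjusted p under 0.05. Over all tested genes 4.76% were called higher, 2.65% lower, and 27.6% had such a p. Limma-voom called 3 and DESeq2 4, against 7.64% and 14% of all tested genes. The fourth in DESeq2 was Ehd2, an ATPase at the neck of caveolae, which was chosen after its values were seen and stood at 1188 ± 114 and 935 ± 20.8 CPM (SD, n = 3, log2 fold change −0.35). Lypla1, an acyl-protein thioesterase that removes palmitate from CD36, rose from 52.1, 34.9 and 52.9 CPM to 78.5, 91.7 and 95.2 CPM (log2 fold change 0.92, SE 0.17, edgeR adjusted p = 0.0239). Lyn, a Src-family kinase that acts downstream of CD36 and is abundant in myeloid cells, rose from 50.2, 45.3 and 43.2 CPM to 73.3, 62.5 and 71.2 CPM (0.58, SE 0.12, edgeR adjusted p = 0.0300). The macrophage markers, 9 of 14 of which rose with a median log2 fold change of 1.28, were higher in the same libraries, and their part in the Lyn level was not tested. Cav2, which encodes caveolin-2, rose from 521, 434 and 441 CPM to 752, 666 and 715 CPM (0.61, SE 0.14, edgeR adjusted p = 0.0354). With the GC and length trend taken out Cav2 stood at 0.34 and lost its call (edgeR adjusted p = 0.131). With single libraries left out the log2 fold changes ranged from 0.75 to 1.03 for Lypla1, 0.53 to 0.65 for Lyn and 0.56 to 0.71 for Cav2. Cav1, the gene of caveolin-1, was chosen after its values were seen and stood at 2430 ± 206 and 2881 ± 87.3 CPM (SD, n = 3, log2 fold change 0.25, edgeR adjusted p = 0.315). Cavin1, Cavin2 and Cavin3 of the same list, chosen likewise, had log2 fold changes of −0.20, 0.02 and −0.33 and were not called. Over the 11 tested genes of the list the median log2 fold change was 0.04, with 7 above 0 and 4 below.

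None of the 15 tested partners of LPL passed edgeR's test, while 7 had an unadjusted p under 0.05, DESeq2 called 4 and limma-voom 0. Over all tested genes the shares were 7.41% in edgeR, 27.6% at an unadjusted p under 0.05, 14% in DESeq2 and 7.64% in limma-voom. Apoc1, an apolipoprotein that inhibits lipolysis, had 222, 191 and 155 CPM in the wild-type libraries, against 118, 140 and 103 CPM in the knockout libraries (log2 fold change −0.66, edgeR adjusted p = 0.0509). With the GC and length trend taken out Apoc1 stood at −0.25 (edgeR adjusted p = 0.184), and without wild-type replicate 3 at −0.78 (edgeR adjusted p = 0.00957). Sdc1, a heparan sulfate proteoglycan that binds LPL and lipoproteins, stood at 19.2 ± 3.90 and 30.0 ± 3.88 CPM (0.64, edgeR adjusted p = 0.0632), and at 0.48 without wild-type replicate 3, where it passed (edgeR adjusted p = 0.0428). With that replicate left out, edgeR called 18.3% of all tested genes. Angptl4, the secreted inhibitor of LPL in fat, was chosen after its values were seen and had 1255 ± 239 CPM in the wild-type libraries, against 1258 ± 58.5 CPM in the knockout libraries (SD, n = 3, log2 fold change 0.00). Among 7 tested lipoprotein receptors and other lipases edgeR, DESeq2 and limma-voom called 0, with 1 at an unadjusted p under 0.05 in edgeR. Scarb1, the high-density lipoprotein receptor, stood at 142 ± 8.74 and 178 ± 24.1 CPM (0.33), and Lipg, endothelial lipase, at 1.10 ± 0.760 and 2.24 ± 1.41 CPM, with a log2 fold change of 1.03 that ranged from 0.33 to 1.78 with single libraries left out and passed only without wild-type replicate 3 (edgeR adjusted p = 0.0482).

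Of 8 other fatty acid and acyl-CoA binding proteins, 5 had an unadjusted p under 0.05, edgeR called 1, DESeq2 called 4 and limma-voom 0. The shares over all tested genes were 27.6%, 7.41%, 14% and 7.64%, in that order. The 1 called by edgeR was Fabp7, the brain-type binding protein, at 0.490, 0.243 and 0.371 CPM in the wild-type libraries, against 1.55, 1.50 and 0.806 CPM in those of the knockout (log2 fold change 1.75, SE 0.44, edgeR adjusted p = 0.0479). It reached the low-count cutoff in 0 wild-type and 3 knockout libraries, so it was tested only because of the group where it was high. Its call by edgeR carries no weight, nor does that by DESeq2. Its log2 fold change ranged from 1.54 to 2.02 with single libraries left out, and the call also ended in limma-voom, with relative log expression scaling, with no low-count filter and without wild-type replicate 1. Acbd3, an acyl-CoA binding domain protein of the Golgi, stood at 29.8 ± 3.08 and 41.1 ± 2.57 CPM (SD, n = 3, log2 fold change 0.46), with 0.21 once the GC and length trend was taken out and 0.52 without wild-type replicate 3, where it passed (edgeR adjusted p = 0.0238). The fit without that replicate called 18.3% of all tested genes. Chosen after their values were seen, Acbd5 stood at 39.1 ± 10.3 and 63.0 ± 7.18 CPM and Acbd4 at 321 ± 21.9 and 243 ± 24.5 CPM, and DESeq2 called both and Acbd3. Dbi, the abundant acyl-CoA binding protein, chosen likewise, stood at 3862 ± 643 and 2690 ± 565 CPM (log2 fold change −0.52, edgeR adjusted p = 0.145). The other transport proteins had no call by any of the 3 tools and no unadjusted p under 0.05. Slc27a3 stood at 10.6 ± 0.568 and 11.2 ± 0.924 CPM, and Got2, a mitochondrial aminotransferase also described as a fatty acid binding protein of the plasma membrane, at 15.5 ± 0.650 and 15.5 ± 1.57 CPM. The 3 untested genes of this list, Slc27a2, Slc27a5 and Slc27a6, named after their values were seen, did not pass the low-count filter, with 23 to 27 counts over all libraries.

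Of 8 other acyl-CoA synthetases, edgeR called 1 lower and 0 higher, against 2.65% and 4.76% of all tested genes. At an unadjusted p under 0.05 there were 2, against 27.6%. DESeq2 and limma-voom each called 1, against 14% and 7.64%. Acsf3, the mitochondrial malonyl-CoA synthetase, fell from 53.9, 54.8 and 61.6 CPM to 37.6, 39.0 and 36.0 CPM (log2 fold change −0.60, SE 0.11, edgeR adjusted p = 0.0238), in a range of −0.63 to −0.53 with single libraries left out. Acsm5, a medium-chain synthetase, stood at 12.8 ± 5.89 and 7.24 ± 1.33 CPM (−0.81), and at −0.39 without wild-type replicate 3. None of the 6 tested acyl-CoA thioesterases, which release free fatty acids, was called by edgeR or limma-voom, with 1 at an unadjusted p under 0.05 in edgeR. These counts stand beside the same shares of all tested genes. Acot13 stood at 50.6 ± 6.94 and 35.7 ± 5.02 CPM (−0.50) and Acot2 at 15.5 ± 4.31 and 12.0 ± 0.544 CPM (−0.37), and DESeq2 called Acot13 lower. With the GC and length trend taken out they stood at −0.19 and −0.23, and without wild-type replicate 3 at −0.58, where Acot13 passed (edgeR adjusted p = 0.0232), and −0.11. The fit without that replicate called 18.3% of all tested genes.

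**Figure D4:**
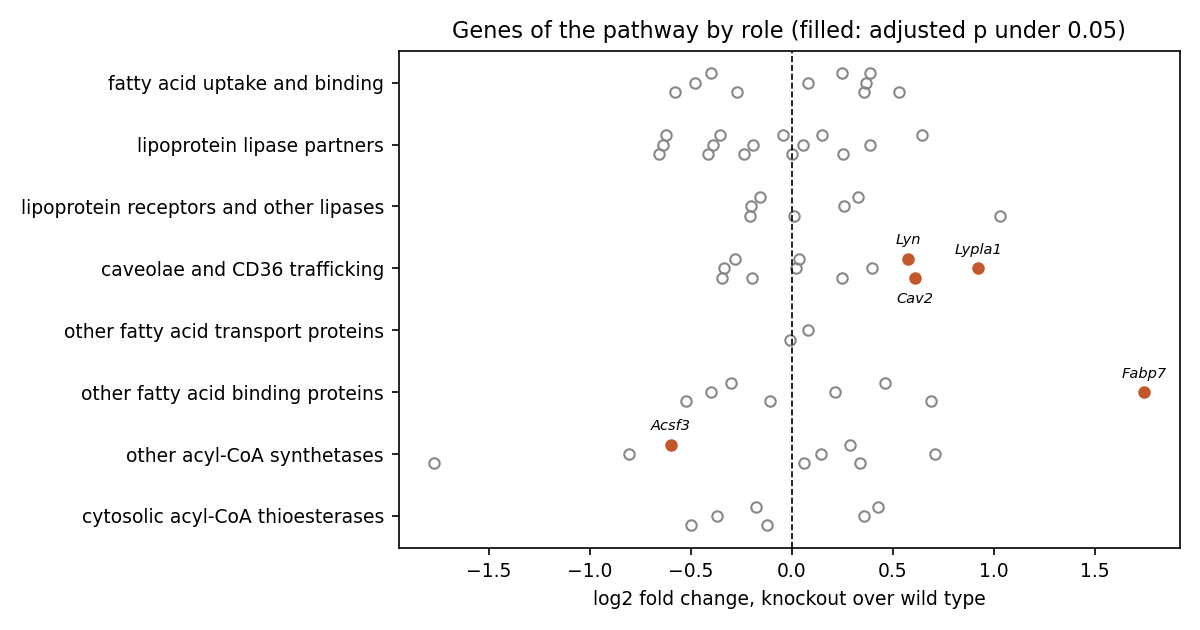
Log2 fold change, knockout over wild type, of the 10 members (top row) and of the other tested genes of the pathway by list, 1 circle per gene, with vertical offsets for legibility only. Filled circles have an adjusted p under 0.05 in edgeR: Lypla1, Lyn, Cav2 and Fabp7 (which passed the low-count filter only through the knockout libraries) on the higher side and Acsf3 on the lower.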

How the data were processed

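Total RNA was taken up in TRIzol and turned into TruSeq RNA v2 libraries, which were sequenced single-end, per the labels' protocols. The submitters' processing notes name HISAT2 2.1.0, HTSeq 0.13.5, DESeq2 1.26 and the build mm10. The sources used here give neither the annotation nor the counter's settings. What the authors deposited are raw counts per gene symbol, 1 file per library. The counter's summary lines stayed out of library sizes and tests, and reads assigned to no feature were 8.85% to 14.7% of uniquely placed reads. Reads that match several places could have been left out, so paralogs, pseudogenes and overlapping genes are uncertain.

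The main test ran in edgeR 4.0.16 under R 4.3.3, with filterByExpr, TMM scaling and a robust quasi-likelihood F test on all 6 libraries without covariates, adjusted by Benjamini-Hochberg over 14065 genes, with calls under 0.05. Standard errors are log2 fold changes over the square root of F, and 95% intervals use the moderated degrees of freedom. DESeq2 1.42.0 and limma 3.58.1 were alternatives. Positions and lengths are from GENCODE M21 on GRCm38, the assembly behind mm10, and levels per kilobase use the longest APPRIS principal transcript. The script was tested on simulated data.

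The members and lists were chosen with earlier results of these data known. Named genes are Mpst, the members, and in each pathway list the 2 smallest p-values and every call. Other pathway genes whose levels are given are marked in the text. Krt14, Wap and Csn2, the epithelial markers without counts, were also named after their values were seen. Pmp2, Fabp9, Fabp12, Gm45244 and Fabp5l2 are named for position or sequence only. The Fabp5 and Acsl4 shares used exact permutation tests. Alternatives were other scalings, filters and tests, a replicate block, thinning, removal of GC and length trends, and libraries left out. The same replicate numbers in both genotypes were not taken as pairs, since the labels give no shared animal, litter or batch.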

Additional observations from a re-analysis of the deposited data

How the results depend on the processing

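The count of called members depended on the test. It was 0 higher and 0 lower in the edgeR fit, and 2 higher and 2 lower with DESeq2. With single libraries left out, the members called lower ranged from 0 to 1 and those called higher stayed at 0. All tested genes called were 669 higher and 373 lower, 1074 and 894 with DESeq2, and 0 and 1 without the 2 libraries highest in muscle transcripts, where fewer samples were fitted. With single libraries left out they ranged from 0 to 1434 higher and 1 to 1167 lower, both highest without wild-type replicate 3. Other pathway genes called were 4 higher and 1 lower, 7 and 7 with DESeq2, 0 and 0 without the 2 muscle-high libraries, and 0 to 9 and 0 to 7 with single libraries left out, and 2 were lower with no low-count filter. Fabp7, which passed the low-count filter only through the knockout libraries, is among the 4 called higher. Where not stated, the cause was not tested.

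Whether the same numbers pair the libraries cannot be told: same-numbered deviations correlated at 0.171, −0.0994 and 0.303. Wild-type replicate 1 correlated best with knockout replicate 2 (0.357), and wild-type replicate 3 with knockout replicate 3. With a replicate block, 1387 genes were higher and 1289 lower, 2 members were higher (Cd36 and Vldlr) and 2 lower (Gpihbp1 and Slc27a1), and 8 other pathway genes were higher and 6 lower.

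Directions turned for Lpl (−0.12 with the GC and length trend removed, and −0.093 to 0.28 with single libraries left out, lowest without wild-type replicate 3), Fabp5 (−0.069 to 0.48 with single libraries left out, lowest without wild-type replicate 3), Slc27a3 (−0.11 when thinned) and Got2, which lay near 0 (0.012 at a minimum of 10 CPM, 0.030 with the GC and length trend removed, 0.0026 without the 2 muscle-high libraries, and −0.065 to 0.074 with single libraries left out, 0.027 without wild-type replicate 2). The Acsl4 share differed by −0.0174 percentage points, in a range of −0.0720 to 0.0354 with single libraries left out, 0.0034 without knockout replicate 3. The Fabp5 share kept its direction in all 8 alternatives, among them the length of all exons, chosen after seeing the data. The other 8 members kept their direction in all 17 refits. Depth limits Acsl4 most among the members, at 215 counts in knockout replicate 1.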
